A study of Mus musculus with 12 samples.

Results

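Whole leukemia cells lacking AMPK were compared with wild-type leukemia cells on 6 of the 12 expression arrays of the series, 3 per genotype. The arrays were chosen by their descriptions: AMPK_delta whole 1 to 3, of genotype AMPKΔ/Δl(KO), against WT whole 1 to 3, of genotype AMPKfl/fl(WT). All were from C57BL/6J bone marrow. Recipients had received 10 Gy of irradiation and 50000 progenitor or stem cells of the marrow carrying the fusion oncogene MLL-AF9, and 5000 GFP+ cells were sorted when each recipient developed acute myeloid leukemia. Both genotypes therefore carry MLL-AF9 and the GFP used for the sort, and the wild type carries floxed AMPK alleles. The labels do not name the deleted subunit, the Cre driver, the age or whether replicates came from separate recipients, so the p-values cover only variation among these arrays, part of which may be technical. The other 6 arrays hold L-GMP, the GFP+, lin-, c-kit+, CD16/32+, CD34+ fraction. They are used for the shared estimate of spread, for the genotype difference in L-GMP and for its comparison with whole leukemia.

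AMPK is a kinase of 3 subunits, a catalytic alpha, a scaffolding beta and a nucleotide-binding gamma, that is switched on when AMP or ADP rises against ATP. It phosphorylates enzymes of lipid synthesis, parts of the mTORC1 pathway and autophagy proteins, and thereby turns anabolic pathways down and catabolic ones up. MLL-AF9 maintains high transcription of HoxA genes, Meis1 and Mef2c, and blocks granulocyte-macrophage progenitors from completing differentiation. A GFP+ sort with no further gate holds leukemic cells at all stages of maturation, so in these bulk arrays fewer cells of a type and less RNA per cell cannot be told apart.

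No gene passed the test. In limma's test, at a Benjamini-Hochberg adjusted p under 0.05, 0 of 17749 genes (0%) were called, and the lowest adjusted p was 0.242. Leaving out wild-type array 3 gave 1 call, Mertk (limma adjusted p = 0.0302), and leaving out L-GMP wild-type array 2, which enters only through the spread, gave 1 call, Dennd5b (limma adjusted p = 0.0294). Before adjustment 1059 genes (5.97%) had a p under 0.05, 431 of them higher in the knockout (2.43%) and 628 lower (3.54%). That count was 2068 without knockout array 1 and 692 without wild-type array 2. The 3 knockout arrays all lay above the 3 wild-type arrays for 969 genes (5.46%) and all below for 1017 (5.73%). A difference of 1 log2 unit or more was measured upward for 125 genes (0.704%) and downward for 99 (0.558%). The median difference over all genes was -0.0016, its median SE 0.153 and the median half-width of the 95% interval 0.34. An exact permutation test of 3 against 3 arrays cannot go below 0.1. All differences are knockout minus wild type on the log2 scale of the deposited intensity, each ± is the SE of the fit with n = 3 and 3 arrays unless stated, and array values are given for arrays 1, 2 and 3 of a genotype in that order.

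Knockout array 2 stood apart from the others. The first principal component held 50.72% of the variance and put it at 61.52 and the other 5 arrays between -20.9 and 0.01. Its Pearson correlations with them over genes were 0.886 to 0.916, against 0.953 to 0.974 among the other 5. It exceeded the highest of the others by over 1 log2 unit for 322 genes and fell short of the lowest by as much for 204, whereas the other arrays did so for 1 to 58 and 0 to 32 genes. The main values below are therefore given with and without it. Without it limma called 0 genes (0%), with a lowest adjusted p of 0.123, and 403 genes (2.27%) were higher and 365 (2.06%) lower at an unadjusted p under 0.05. Of the 125 genes higher by 1 log2 unit or more, 28 were still so without that array, and of the 99 lower ones 61 were.

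**Figure D1:**
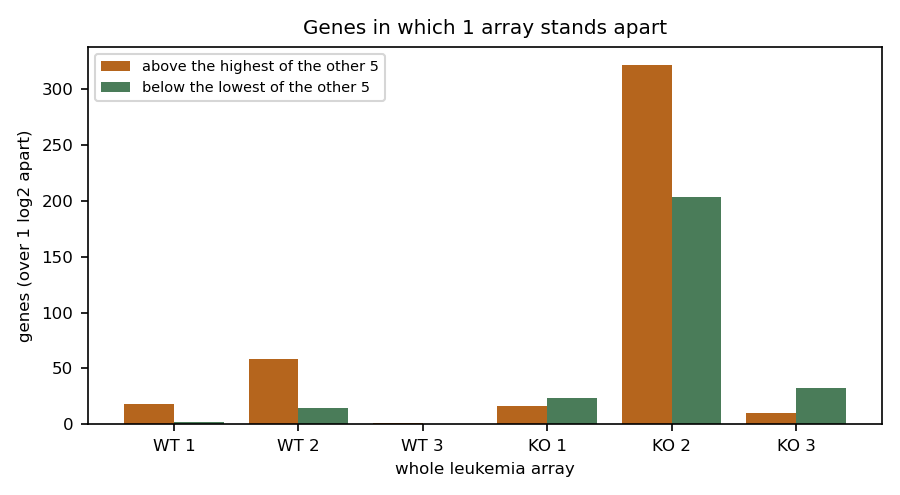
For each of the 6 whole leukemia arrays (WT wild type, KO AMPK knockout), the bars count genes whose value lay over 1 log2 unit above the highest (brown) or below the lowest (green) of the other 5 arrays. Knockout array 2 holds 322 and 204 such genes, and the other arrays hold 1 to 58 and 0 to 32.

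The catalytic subunit genes served as a check on the genotype. The wild-type arrays measured 8.69, 7.72 and 8.32 and the knockout arrays 7.40, 7.45 and 6.95 for Prkaa1, which encodes the alpha1 catalytic subunit. The groups did not overlap, and the difference was -0.98 ± 0.24 (limma adjusted p = 0.592), or 1.97-fold higher in the wild type. Knockout array 2, at 7.45, lay with the other knockout arrays, and the difference without it was -1.07. In L-GMP it was -1.15. Prkaa2, encoding alpha2, was near the lowest levels on the array, between 4.66 and 4.92 in all 6 arrays, with a difference of 0.10. The probe set's place relative to the deleted exons is not given, and whether the remaining Prkaa1 signal comes from the deleted allele was not tested.

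Among the regulatory subunits, Prkag2 (gamma2) was at 5.70, 5.75 and 5.97 in the knockout against 6.03, 6.13 and 6.45 in the wild type. Its arrays did not overlap, with a difference of -0.40 ± 0.18. Prkab1 (beta1) was highest in knockout array 2, at 9.24 against 7.64 to 8.35 in the wild type, and its difference went from 0.49 to 0.13 without it. Prkab2 differed by -0.43, Prkag1 by 0.12 and Prkag3 by 0.11, all with overlapping arrays. Of 25 AMPK kinases and substrates, 13 were higher and 12 lower, with a median of 0.02. Strada, the pseudokinase that activates the AMPK kinase LKB1, had the lowest p of them, at 6.63, 6.63 and 6.67 in the knockout against 6.94, 6.82 and 7.06 in the wild type, which gives a difference of -0.30 ± 0.10. The next was Pfkfb3, an AMPK-phosphorylated activator of glycolysis, at 7.07, 6.63 and 6.77 in the knockout against 6.37, 6.37 and 6.57 in the wild type, which gives a difference of 0.38 ± 0.17, and neither gene's arrays overlapped.

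Stag3, which encodes a cohesin subunit of meiotic cells, had the lowest unadjusted p of the genes with approved names and the largest downward difference among all genes. The wild-type arrays measured 8.33, 8.74 and 7.61 and the knockout arrays 5.28, 5.77 and 6.13. The groups did not overlap, and the difference was -2.50 ± 0.37 (limma adjusted p = 0.358), 5.67-fold higher in the wild type. It was -2.52 without knockout array 2 and -2.77 in L-GMP. The gene 1700080G11Rik, for which no role is given here, had the lowest adjusted p of all, 0.242, with 4.72, 4.94 and 4.76 in the knockout against 6.63, 7.45 and 6.74 in the wild type. Its difference was -2.14 ± 0.28, -2.20 without knockout array 2 and -2.67 in L-GMP (limma adjusted p = 0.0314). Of 15 cohesin genes tested, Stag3 included, 7 were higher and 8 lower, with a median of 0.00. Without knockout array 2, 11 were lower and the median was -0.09, in L-GMP 11 were lower and it was -0.24, and the mitotic paralog Stag2 differed by 0.10.

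Stag3 also belongs to the list of germline and meiosis genes. Of its 36 genes on the array 20 passed the filter on dim genes and were tested. Of these 20, Stag3 included, 6 had all knockout arrays below the wild type and 1 above, against 5.73% and 5.46% of all genes. The median was -0.06. Hormad2, a meiotic chromosome axis protein, measured 4.91, 4.90 and 4.89 in the knockout against 6.65, 6.91 and 4.96 in the wild type, so wild-type array 3 lay near the knockout level. Tdrkh, a Tudor protein of the piRNA pathway, differed by -0.48, and Mei1 and Tdrd9 by -0.15 and -0.16. The exception upward was Tex15, needed for meiotic recombination, at 5.34, 5.57 and 5.09 in the knockout against 4.91, 4.75 and 4.98 in the wild type, which gives a difference of 0.46 ± 0.12.

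The letters just before the start of some of these genes are shown so that members of different groups can be compared. They are the 250 bases before the annotated start in RefSeq, build GRCm38.p6, written 5′ to 3′ in the direction of the gene. Capitals mark exact matches on either strand to either of 2 motifs, whose matches do not overlap in these windows. One is AGATAA, which erythroid zinc finger factors bind. The other is GAGGAA, a core that PU.1 and other ETS factors bind.
Stag3, the gene of largest downward difference, chr5:138280259-138280508, plus strand: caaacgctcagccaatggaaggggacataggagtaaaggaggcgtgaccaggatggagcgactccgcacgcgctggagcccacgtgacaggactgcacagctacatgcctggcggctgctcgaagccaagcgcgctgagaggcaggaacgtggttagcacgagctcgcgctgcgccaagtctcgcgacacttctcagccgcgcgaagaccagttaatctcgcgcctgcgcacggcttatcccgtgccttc
Kel, an erythroid gene high in knockout array 2, chr6:41704326-41704575, minus strand: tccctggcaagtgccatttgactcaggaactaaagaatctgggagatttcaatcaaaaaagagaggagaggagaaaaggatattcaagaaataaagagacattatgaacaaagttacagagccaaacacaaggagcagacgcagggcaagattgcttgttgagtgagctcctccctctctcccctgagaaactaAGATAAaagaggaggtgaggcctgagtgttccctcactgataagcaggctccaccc
Trim10, another such gene, chr17:36869324-36869573, plus strand: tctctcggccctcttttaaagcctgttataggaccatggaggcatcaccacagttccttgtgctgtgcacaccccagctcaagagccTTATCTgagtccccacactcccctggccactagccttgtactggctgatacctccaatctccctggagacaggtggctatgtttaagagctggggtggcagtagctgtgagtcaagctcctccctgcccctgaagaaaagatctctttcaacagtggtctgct
S100a8, a neutrophil gene, chr3:90668821-90669070, plus strand: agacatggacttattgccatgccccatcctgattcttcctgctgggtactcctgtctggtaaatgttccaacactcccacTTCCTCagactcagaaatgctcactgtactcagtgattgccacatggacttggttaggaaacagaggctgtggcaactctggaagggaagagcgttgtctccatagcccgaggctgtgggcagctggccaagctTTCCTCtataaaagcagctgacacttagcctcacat
Ctss, a monocyte gene, chr3:95526536-95526785, plus strand: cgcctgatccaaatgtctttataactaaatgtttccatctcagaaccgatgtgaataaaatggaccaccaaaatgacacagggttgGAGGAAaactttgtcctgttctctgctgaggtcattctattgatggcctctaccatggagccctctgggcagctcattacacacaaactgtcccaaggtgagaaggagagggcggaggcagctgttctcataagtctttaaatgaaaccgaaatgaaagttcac
Kel and Trim10 each hold 1 match to AGATAA, S100a8 holds 2 and Ctss 1 to GAGGAA, and Stag3 holds neither. No rule set the choice of the erythroid, neutrophil and monocyte examples. Most erythroid windows lack AGATAA and most monocyte windows lack GAGGAA. Of 32851 such windows in the table, 9.99% hold AGATAA and 23.3% GAGGAA. Windows were found for 22 of the erythroid genes, 25 windows in all, of which 7 (28%) hold AGATAA and 6 (24%) GAGGAA. For the neutrophil genes 33 windows were found for 30 genes, of which 6 (18.2%) hold AGATAA and 19 (57.6%) GAGGAA, and for the monocyte genes 35 windows for 30 genes, of which 4 (11.4%) and 13 (37.1%) do. The MLL-AF9 target genes had 28 windows for 18 genes, of which 0 (0%) hold AGATAA and 8 (28.6%) GAGGAA. A match describes letters only and does not show that a factor binds there.

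Cd34, a surface sialomucin of stem and progenitor cells, had the next lowest p. The wild-type arrays measured 8.48, 9.38 and 8.35 and the knockout arrays 5.54, 6.65 and 7.05. The groups did not overlap, the difference was -2.32 ± 0.37 (limma adjusted p = 0.478), and it was -2.44 without knockout array 2. In L-GMP the difference was -0.09. CD34 protein is part of the L-GMP gate, and whether the gate accounts for the Cd34 RNA level there was not tested. Of the other genes of that gate, Kit, the stem cell factor receptor, measured 8.04, 7.59 and 6.88 in the knockout against 6.47, 7.02 and 7.5 in the wild type, with overlap and a difference of 0.50 ± 0.47. Fcgr3 and Fcgr2b, the Fc receptors that CD16/32 antibodies bind, differed by -0.33 and -0.57, also with overlap.

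Dennd5b and Zc3h12c had the largest falls after Stag3 among the named genes without overlap. The wild-type arrays measured 7.18, 7.47 and 6.75 and the knockout arrays 4.44, 5.06 and 4.69 for Dennd5b, of the DENN family of Rab exchange factors. Its difference was -2.40 ± 0.42, and its other probe set gave -1.58, again with no overlap. Limma did not call Dennd5b over all arrays. It was called only when L-GMP wild-type array 2 was left out (limma adjusted p = 0.0294). Zc3h12c, of the Regnase family of RNA-degrading zinc finger proteins, measured 5.03, 6.02 and 5.60 in the knockout against 8.43, 8.50 and 7.20 in the wild type, which gives a difference of -2.49 ± 0.52. Both were of like size in L-GMP, at -2.12 and -1.97, and without knockout array 2, at -2.57 and -2.73. Wild-type array 3 was the lowest of the wild-type arrays for both, yet above all knockout arrays.

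**Figure D2:**
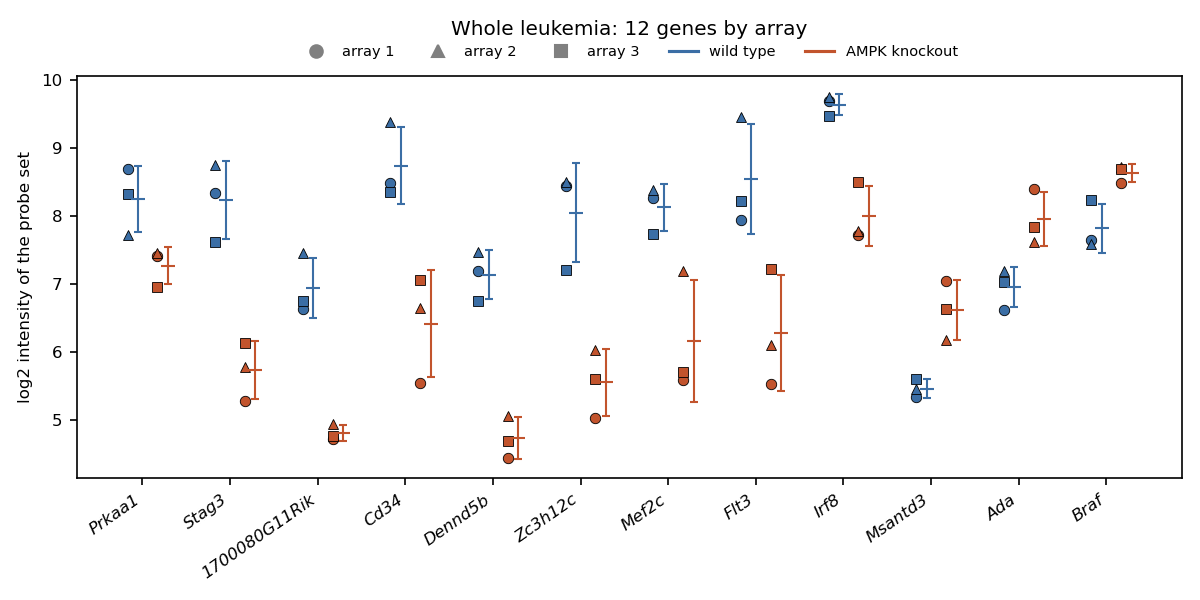
Log2 intensity of 12 genes in each whole leukemia array, wild type in blue and AMPK knockout in orange, with circles, triangles and squares for arrays 1, 2 and 3 and a bar for the mean ± SD of the 3 arrays. For each of these genes the groups do not overlap; the knockout is lower for the first 9 and higher for Msantd3, Ada and Braf.

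The named genes lower in the knockout with the smallest unadjusted p included 9 others. Tns1, a tensin of focal adhesions, measured 6.05, 6.37 and 6.04 in the knockout against 7.79, 7.82 and 6.95 in the wild type, which gives a difference of -1.37 ± 0.23, and -1.15 in L-GMP. Rad9a, part of the 9-1-1 clamp that signals DNA damage, had little spread: 6.93, 6.94 and 7.01 in the knockout against 7.43, 7.52 and 7.35 in the wild type, which gives a difference of -0.47 ± 0.08. Vmp1, an endoplasmic reticulum protein needed to form autophagosomes, was at 8.13, 8.43 and 8.37 in the knockout against 9.63, 8.92 and 9.0 in the wild type, which gives a difference of -0.88 ± 0.17. Sec24b, a cargo adaptor of COPII vesicles, differed by -0.69 ± 0.13, Stambp, an endosomal deubiquitinase, by -0.67 ± 0.13, Mid1, a microtubule-associated ubiquitin ligase, by -0.63 ± 0.12 and Lat2, an adaptor in immune receptor signalling, by -1.37 ± 0.27. Armh3 differed by -0.84 ± 0.15 and Ccpg1os, an opposite-strand gene whose signal may include its partner's, by -1.04 ± 0.19. In all of them the 3 knockout arrays lay under the lowest wild-type one, which the choice by low p favours.

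The genes higher in the knockout with the lowest p values differed widely in size. Lipg, encoding endothelial lipase, was at 5.15, 5.41 and 5.04 in the knockout against 4.69, 4.74 and 4.61 in the wild type, near the lowest levels on the array, a difference of 0.52 ± 0.10. Braf, the kinase upstream of MEK, was well expressed, at 8.48, 8.72 and 8.68 in the knockout against 7.64, 7.58 and 8.23 in the wild type, which gives a difference of 0.81 ± 0.17. Its target kinase gene Map2k1 was lower, at 7.24, 7.16 and 7.23 in the knockout against 7.68, 7.56 and 7.58 in the wild type, which gives a difference of -0.39 ± 0.12. Of 18 MAPK pathway genes, 9 were higher and 9 lower.

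Msantd3, Ada and Usp24 also lay higher in all knockout arrays. Msantd3, a Myb/SANT-like domain protein, measured 7.04, 6.17 and 6.63 in the knockout against 5.33, 5.45 and 5.60 in the wild type, which gives a difference of 1.15 ± 0.25, 1.37 without knockout array 2 and 1.60 in L-GMP. Ada, adenosine deaminase of purine salvage, measured 8.39, 7.62 and 7.83 in the knockout against 6.62, 7.19 and 7.03 in the wild type, which gives a difference of 1.00 ± 0.23. Usp24, a deubiquitinase, differed by 0.53 ± 0.12, and by 0.63 in L-GMP. N4bp2l2 (0.45), Oxct2a (0.69), Cabp1 (0.41), Rdh16f2 (0.36), Clec3a (0.98) and Plekhb1 (0.53) completed the named genes, with Cabp1, Rdh16f2, Oxct2a and Clec3a at most 4.98 in the wild type, near the lowest levels on the array.

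The microRNA gene Mir290a was also among them. Its array values were 5.69, 7.56 and 6.65 in the knockout against 4.53, 4.51 and 5.0 in the wild type, so the groups were apart, with a difference of 1.95 ± 0.46 (limma adjusted p = 0.57) and 1.48 without knockout array 2. The miR-290 family is known from embryonic stem cells. Both mature arms are shown because their seeds, bases 2 to 8 in capitals, differ.
mmu-miR-290a-5p, chr7:3218639-3218660, plus strand: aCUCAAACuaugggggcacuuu
mmu-miR-290a-3p, chr7:3218674-3218697, plus strand: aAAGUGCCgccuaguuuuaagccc
The array's probe set is assigned to the gene as a whole and does not separate the arms or measure mature microRNA.

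Monocyte and macrophage genes lay lower in the knockout. Of 36 tested, 30 were lower, against 50.4% of all genes, and for 11 of them (against 5.73% of all genes) the arrays did not overlap, while 2 lay wholly higher. Their median was -0.36, and -0.30 without knockout array 2, when 32 of 36 were lower against 48.4% of all genes. None passed limma's test (lowest adjusted p = 0.609). The mean of the 36 genes was 7.90, 7.91 and 7.59 in the wild-type arrays and 7.17, 7.21 and 7.5 in the knockout, so the third array of each genotype lay nearest to the other group.

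Irf8, the transcription factor that directs progenitors to monocytes and dendritic cells, was the member of largest difference. The wild-type arrays measured 9.68, 9.75 and 9.46 and the knockout arrays 7.71, 7.78 and 8.50. The difference was -1.63 ± 0.74, -1.52 without knockout array 2. Fn1, fibronectin, was at 10.01, 9.68 and 10.36 in the knockout against 11.98, 11.51 and 10.97 in the wild type, which gives a difference of -1.48 ± 0.78, and -2.41 in L-GMP. Mertk, a receptor for uptake of dying cells, measured 5.19, 5.51 and 5.49 in the knockout against 7.17, 7.53 and 5.75 in the wild type. The difference was -1.42 ± 0.37 (limma adjusted p = 0.609), with wild-type array 3 nearest to the knockout. Leaving that array out gave -1.95, and only then was Mertk called (limma adjusted p = 0.0302). Ctss, a lysosomal cathepsin of antigen processing, was at 8.75, 8.71 and 9.31 in the knockout against 10.56, 10.61 and 9.53 in the wild type, which gives a difference of -1.31 ± 0.54.

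The chemokine receptors of monocytes were among the lower members. Ccr2, needed for exit from marrow, measured 7.01, 6.79 and 7.52 in the knockout against 8.19, 8.11 and 7.69 in the wild type, which gives a difference of -0.89 ± 0.24. Cx3cr1 measured 6.61, 6.57 and 6.32 in the knockout against 7.21, 7.49 and 7.15 in the wild type, which gives a difference of -0.78 ± 0.22. Neither overlapped. Csf1r, the receptor for macrophage colony-stimulating factor, did overlap, at 7.07, 6.71 and 7.67 in the knockout against 8.75, 8.06 and 7.60 in the wild type, with a difference of -0.99 ± 0.33. Ms4a6c (-1.36), F13a1 (-1.23), Cd68 (-1.07) and Mpeg1 (-1.0) lay wholly lower as well. For Cd68 much of this was knockout array 2, and its difference was -0.50 without it. Lyz2, the myeloid lysozyme, was high in all arrays, at 11.42, 11.51 and 11.32 in the knockout against 11.68, 11.43 and 11.84 in the wild type, and its paralog Lyz1, whose probes may share its sequence, was among the higher members, at 0.73.

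Other named genes of large downward difference without overlap are given next, chosen by size. Ccl3 is also in the inflammatory cytokine and NF-kB list. Of that list's 24 genes tested 10 were higher and 14 lower, with a median of -0.08. Gpnmb, a lysosomal and surface glycoprotein, was at 6.93, 5.29 and 8.10 in the knockout against 9.98, 9.19 and 8.35 in the wild type, which gives a difference of -2.40 ± 0.67 and -1.66 without knockout array 2. Dpep2, a membrane dipeptidase, was at 7.19, 5.78 and 7.89 in the knockout against 9.86, 8.95 and 8.78 in the wild type, which gives a difference of -2.24 ± 0.46. Ly86, the MD-1 partner of the receptor RP105, was at 7.33, 6.93 and 7.81 in the knockout against 9.44, 9.77 and 8.90 in the wild type, which gives a difference of -2.01 ± 0.42. Ccl3, a chemokine that attracts monocytes, was at 7.34, 5.86 and 8.18 in the knockout against 9.24, 9.19 and 8.58 in the wild type, with knockout array 2 lowest, and its difference was -1.88 with and -1.25 without that array. Clec4a1, a C-type lectin of myeloid cells, differed by -1.82 ± 0.47.

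Of 23 MLL-AF9 target genes, 20 were lower in the knockout, against 50.4% of all genes, and 6 of these did not overlap, against 5.73%. The median was -0.51 and, without knockout array 2, -0.28. Over the 23 genes the array means were 7.60, 7.78 and 7.61 in the wild type and 7.03, 6.84 and 7.42 in the knockout, with no overlap. Flt3, the receptor tyrosine kinase of early progenitors and dendritic cell precursors, was at 5.52, 6.10 and 7.21 in the knockout against 7.94, 9.45 and 8.22 in the wild type, which gives a difference of -2.26 ± 0.69. Mef2c, a transcription factor of myeloid and lymphoid progenitors, was at 5.58, 7.19 and 5.70 in the knockout against 8.26, 8.38 and 7.73 in the wild type, which gives a difference of -1.97 ± 0.56, and its other probe set gave -1.64. Tcf4, a basic helix-loop-helix factor of plasmacytoid dendritic cells, had the lowest p of the list, at 6.39, 6.22 and 6.39 in the knockout against 7.18, 7.90 and 7.18 in the wild type, which gives a difference of -1.09 ± 0.26 (limma adjusted p = 0.57).

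The MLL-AF9 list holds 6 tested HoxA genes, and other HoxA genes were not counted. All 6 were lower, against 50.4% of all genes, with a median of -0.53 and, without knockout array 2, -0.28. Hoxa9, the HoxA gene most tied to MLL leukemia, measured 7.85, 5.63 and 7.48 in the knockout against 7.91, 8.19 and 7.88 in the wild type. Its groups did not overlap, but knockout array 2 was over 1 log2 unit below the rest, and the difference went from -1.01 ± 0.51 to -0.33 without it. Hoxa6 also lay lowest in that array, and its difference went from -0.67 to -0.28. Hoxa3, also without overlap, differed by -0.25 and by -0.28 without that array. Hoxa5 differed by -0.84, Hoxa7 by -0.39 and Hoxa10 by -0.20, with overlap. Meis1, the Hoxa9 cofactor, was at 7.27, 6.65 and 8.30 in the knockout against 8.14, 8.62 and 8.78 in the wild type, with overlap and a difference of -1.11 ± 0.48.

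For Myb and Cdk6, both supports of MLL-AF9 growth, the downward difference came from knockout array 2 alone. Myb was at 11.08, 8.87 and 10.81 in the knockout against 10.69, 10.73 and 10.86 in the wild type, and its difference was -0.51 with that array and 0.18 without it. Cdk6 was at 10.89, 8.66 and 10.65 in the knockout against 10.42, 10.82 and 10.55 in the wild type, which gives a difference of -0.53 with it and 0.17 without. Myc measured 9.37, 6.94 and 7.88 in the knockout against 8.63, 8.50 and 8.90 in the wild type, higher than the wild type in knockout array 1 and lower in the others. Eya1 varied widely within genotypes, at 5.41, 7.60 and 9.25 in the knockout against 9.68, 5.67 and 5.87 in the wild type, with 1 high wild-type and 2 high knockout arrays and no order between groups.

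Erythroid genes were highest in knockout array 2. All 29 tested were higher in the knockout, against 49.6% of all genes, and all 29 were highest in that array, 28 of them by over 1 log2 unit. Their mean was 5.63, 5.59 and 5.60 in the wild type and 5.61, 9.04 and 6.12 in knockout arrays 1, 2 and 3. The median difference of 1.36 became 0.20 without knockout array 2, when 23 were higher and 6 lower. Whether erythroid cells in the sort or the leukemic cells carry this RNA was not tested.

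Slc4a1, the band 3 anion exchanger of the red cell membrane, measured 5.56, 11.58 and 6.83 in the knockout against 5.72, 5.66 and 5.66 in the wild type. Its difference was 2.31 ± 1.15 with and 0.52 without knockout array 2. Car2, carbonic anhydrase 2, measured 4.70, 11.35 and 6.96 in the knockout against 4.85, 4.75 and 4.49 in the wild type, and so was high in array 3 too, with 2.98 and 1.13. Rhag, of the Rh complex, measured 4.93, 10.12 and 5.96 in the knockout against 4.85, 4.95 and 4.76 in the wild type, and Kel, the Kell antigen, 4.62, 9.31 and 5.11 in the knockout against 4.64, 4.72 and 4.58 in the wild type. The transcription factors Gata1 and Klf1 were lower in level but followed, at 6.76 and 6.37 in knockout array 2 against at most 5.19 and 5.35 in the others. Tfrc, the transferrin receptor, which dividing cells of other kinds also express, did not overlap and kept 0.82 of its difference of 1.52 without that array.

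The widest gaps above the other 5 arrays were at Apol11b, an apolipoprotein L, at 11.57 in knockout array 2 against 4.86 to 6.14, and at Prg2, the eosinophil major basic protein, at 11.38 against 5.45 to 6.59. Among 16 mast cell, basophil and eosinophil genes 3 lay over 1 log2 unit above the others in this array and 1 as far below. Of all 17749 genes 322 and 204 did so. The list's mean was 6.74 in this array, and the remaining whole leukemia arrays spanned 5.84 to 6.25. Knockout array 2 of L-GMP also had the top mean of its population, 7.24, with the rest from 5.84 to 6.25. In whole leukemia the widest gap of knockout array 2 below the other 5 arrays was at Hpgd, which inactivates prostaglandins, at 4.78 against 8.85 to 10.87. Igf2bp3, an RNA-binding protein of fetal and leukemic cells, was at 5.68 against 8.57 to 8.98.

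**Figure D3:**
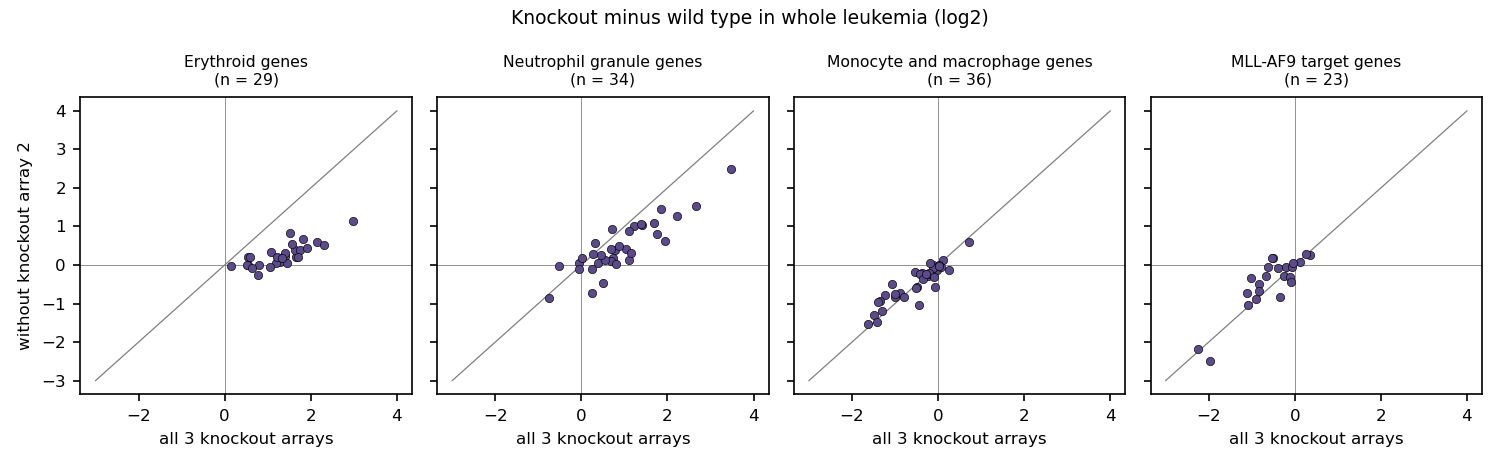
Each point is 1 gene of the named list, with its difference between knockout and wild type in log2 units over all 3 knockout arrays (horizontal) and over knockout arrays 1 and 3 (vertical); the diagonal marks equal values. Erythroid genes drop to a median of 0.20 from 1.36, whereas monocyte genes go from -0.36 to -0.30.

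Neutrophil secondary and tertiary granule genes lay higher in the knockout but overlapped. Of 34 tested, 30 were higher, against 49.6% of all genes. Of these 34, 0 lay wholly above the wild type and 1 wholly below, against 5.46% and 5.73%, and the median was 0.75. Their means were 8.20, 7.86 and 9.82 in the wild type and 8.38, 10.42 and 9.81 in the knockout, so wild-type array 3 matched knockout array 3. Without knockout array 2 the median was 0.36, without wild-type array 3 it was 1.22, and without knockout array 1 it was 1.37. Retnlg, a resistin-like protein of mature neutrophils, measured 7.04, 11.28 and 9.63 in the knockout against 4.48, 4.52 and 8.53 in the wild type, the largest upward difference of all genes at 3.48 ± 1.16, yet wild-type array 3 lay above knockout array 1. Ly6g, the neutrophil surface marker, measured 5.55, 9.88 and 7.37 in the knockout against 4.37, 4.74 and 5.71 in the wild type, which gives a difference of 2.66 ± 0.83.

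The cathelicidin Camp measured 10.80, 12.51 and 11.75 in the knockout against 8.58, 8.76 and 12.14 in the wild type, which gives a difference of 1.86 ± 1.39, and Ltf, lactoferrin, 7.65, 11.65 and 7.69 in the knockout against 5.80, 5.40 and 9.96 in the wild type, which gives a difference of 1.95 ± 1.27. Both had 1 wild-type array among the knockout values. S100a8, a calcium-binding alarmin, measured 11.85, 12.64 and 12.15 in the knockout against 10.44, 10.38 and 12.14 in the wild type, which gives a difference of 1.22 ± 0.78 and 1.01 without knockout array 2. Slpi, a protease inhibitor, was the exception, wholly lower at 10.22, 10.93 and 10.96 in the knockout against 11.26, 11.72 and 11.37 in the wild type, which gives a difference of -0.75 ± 0.34. Cd24a, a surface glycoprotein of neutrophils, erythroid and other cells, did not overlap, at 11.10, 12.49 and 11.63 in the knockout against 9.09, 8.29 and 10.87 in the wild type, with a difference of 2.33 ± 0.89.

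Primary granule and granulocyte-macrophage progenitor genes had no common direction, with 10 of 21 higher, 11 lower and a median of -0.01. Without knockout array 2, 17 were higher and the median was 0.40. Elane, neutrophil elastase, shows the pattern, at 12.32, 10.29 and 12.12 in the knockout against 11.47, 11.58 and 11.72 in the wild type, where knockout array 2 is lowest and knockout arrays 1 and 3 are above every wild-type array. Its difference was -0.01 with array 2 and 0.63 without it. Of the 21 genes 1 lay wholly higher and 1 wholly lower, against 5.46% and 5.73% of all genes. The higher one was Nkg7, a granule membrane protein, at 8.87, 7.94 and 7.15 in the knockout against 6.14, 6.28 and 6.61 in the wild type. Its difference was 1.64 ± 0.86, and 2.50 in L-GMP. Mpo, myeloperoxidase, overlapped, at 11.54, 10.87 and 9.63 in the knockout against 10.49, 10.10 and 10.61 in the wild type.

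Single whole leukemia arrays also set the interferon and mitosis lists. The L-GMP arrays of the same genotype and number shared the interferon shift and the low mitosis value of knockout array 3. Of 27 interferon response genes 23 were lower in the knockout, with a median of -0.33, and 0 were without overlap, against 11.2% of all genes in either direction. The list's mean was 7.92 in wild-type array 2 against 5.70 to 6.49 in the other 5. Without wild-type array 2 the median was 0.35. Mx1, an antiviral GTPase, was at 6.98 in that array and 4.58 to 4.77 elsewhere. Of 28 G2/M and mitosis genes 22 were lower, with a median of -0.16. Their mean was 7.70, 8.03 and 7.93 in the wild type and 7.76, 8.72 and 6.71 in the knockout, so knockout arrays 2 and 3 were the highest and the lowest. Without knockout array 2 the median was -0.69 and all 28 were lower, whereas without knockout array 3 the median was 0.35. Ccnb2, a mitotic cyclin, measured 8.89, 10.22 and 7.86 in the knockout against 9.36, 9.40 and 9.39 in the wild type. In L-GMP the interferon list's mean was 7.71 in wild-type array 2 against 5.63 to 6.10 in the others. The mitosis list's mean there was 8.40 in knockout array 2 and 6.65 in knockout array 3, against 7.69 to 8.33 in the others. Knockout array 2 was thus only just the highest in L-GMP.

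**Figure D4:**
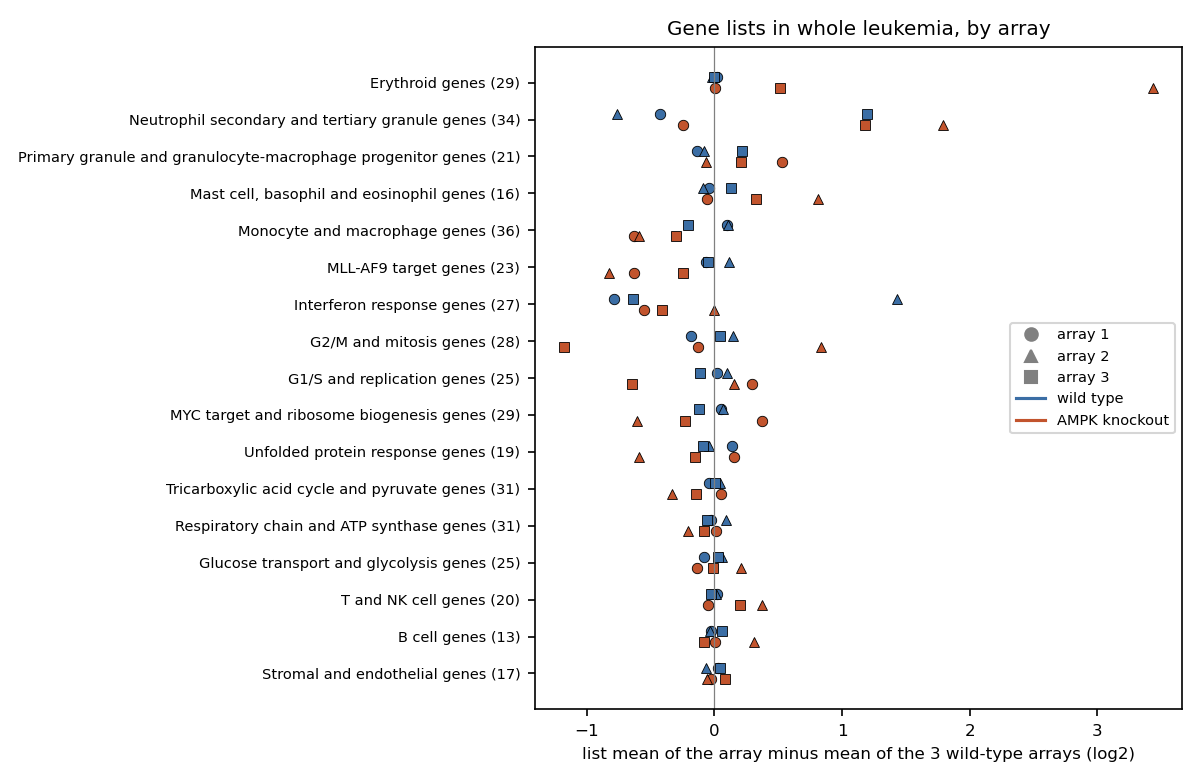
Mean of each gene list in each whole leukemia array minus its mean over the 3 wild-type arrays, in log2 units, with wild type in blue and AMPK knockout in orange, and the number of genes tested in brackets. Knockout array 2 is far right for erythroid genes, wild-type array 2 for interferon genes, and all 3 knockout arrays lie left of the wild type for monocyte and MLL-AF9 target genes.

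Genes of energy metabolism showed small differences. Of 31 tricarboxylic acid cycle and pyruvate genes 23 were lower, 4 of them (against 5.73% of all genes) and 1 higher gene (against 5.46%) without overlap, with a median of -0.14 and, without knockout array 2, -0.07. Idh3g and Idh3b, subunits of isocitrate dehydrogenase 3, had the lowest p: Idh3g was at 9.81, 9.57 and 9.68 in the knockout against 10.07, 10.18 and 10.14 in the wild type, which gives a difference of -0.45 ± 0.15, and Idh3b differed by -0.43 ± 0.19. Respiratory chain and ATP synthase genes had a median of -0.09, with 22 of 31 lower. Cox6b2, a testis-type subunit of cytochrome c oxidase, was wholly lower, at 9.22, 8.98 and 9.07 in the knockout against 9.60, 9.71 and 9.63 in the wild type, which gives a difference of -0.55 ± 0.22 and -0.85 in L-GMP.

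For glucose transport and glycolysis, 11 of 25 genes were higher and 14 lower, with a median of -0.07. Tpi1, triose phosphate isomerase, was wholly lower, at 8.88, 8.17 and 8.71 in the knockout against 9.08, 9.71 and 9.05 in the wild type, which gives a difference of -0.69 ± 0.27. The phosphofructokinase genes Pfkl and Pfkp differed by -0.65 and -0.55 with overlap. Bpgm, which makes 2,3-bisphosphoglycerate in red cells, was the largest upward value, 1.28, and it was 0.17 without knockout array 2. Of 24 hypoxia genes 18 were lower, with a median of -0.14. P4ha1, a collagen prolyl hydroxylase, was at 5.87, 5.57 and 5.82 in the knockout against 6.41, 6.81 and 6.53 in the wild type, which gives a difference of -0.83 ± 0.17 (limma adjusted p = 0.491).

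Fatty acid genes had no common direction. For oxidation 11 of 22 were higher and 11 lower. Acads, short-chain acyl-CoA dehydrogenase, was wholly lower, at 6.87, 6.57 and 6.69 in the knockout against 7.0, 7.13 and 6.99 in the wild type, which gives a difference of -0.33 ± 0.09, while in L-GMP it was 0.37. Slc25a20, the carnitine-acylcarnitine carrier, was wholly higher, at 7.0, 6.99 and 6.38 in the knockout against 6.14, 6.32 and 6.14 in the wild type, which gives a difference of 0.59 ± 0.24. Of 14 fatty acid synthesis genes 5 were higher and 9 lower, and 0 were without overlap, against 11.2% of all genes in either direction. Fasn, the synthase, differed by -0.52 with knockout array 2 and 0.05 without. Of 20 cholesterol synthesis genes 10 were higher and 10 lower.

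In the mTOR and TSC list 13 of 25 were higher and 12 lower, with 5 wholly lower and 2 wholly higher, against 5.73% and 5.46% of all genes. Without knockout array 2, 9 were higher and 16 lower. Deptor, which binds both mTOR complexes, was at 5.85, 5.34 and 6.36 in the knockout against 6.97, 7.0 and 6.43 in the wild type, which gives a difference of -0.95 ± 0.43, and Ddit4, a stress-induced inhibitor of mTORC1, was at 5.25, 6.17 and 5.84 in the knockout against 6.67, 6.48 and 6.59 in the wild type, which gives a difference of -0.83 ± 0.40. Rptor, the mTORC1 scaffold and AMPK substrate, differed by -0.22 ± 0.12. Akt1s1, the inhibitory mTORC1 subunit PRAS40, was wholly higher, by 0.25 ± 0.12.

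Of 33 autophagy and lysosome genes 20 were lower, against 50.4% of all genes, 4 of them without overlap, against 5.73%, with a median of -0.15. Hexa, a lysosomal hexosaminidase, was at 9.22, 7.91 and 8.56 in the knockout against 9.58, 9.21 and 9.37 in the wild type, which gives a difference of -0.82 ± 0.27 that was -0.50 without knockout array 2. Npc2, the lysosomal cholesterol carrier, differed by -0.61 ± 0.22, and Lamp1, a lysosomal membrane glycoprotein, by -0.56 ± 0.26. In the antioxidant list Prdx4, a peroxiredoxin of the endoplasmic reticulum, was wholly lower, at 6.31, 6.05 and 5.90 in the knockout against 7.79, 7.12 and 6.61 in the wild type, which gives a difference of -1.09 ± 0.33 and -1.04 in L-GMP. Prdx2, abundant in red cells, was the largest upward value there, at 9.56 in knockout array 2 against 6.31 to 6.79 in the others.

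Transcription factors of blood cells included Erg, an ETS factor of stem cells, at 6.67, 7.12 and 7.61 in the knockout against 7.89, 7.79 and 8.72 in the wild type, which gives a difference of -0.99 ± 0.29 with no overlap and -0.06 in L-GMP. Bcl11a, a zinc finger factor of lymphoid cells and of globin switching, was higher, at 6.96, 6.85 and 6.16 in the knockout against 5.37, 5.27 and 6.29 in the wild type, with overlap and a difference of 1.01 ± 0.32. Over the 38 factors 24 were higher and 14 lower, with a median of 0.10.

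Markers of other cells in marrow were low. Over 13 B cell genes the array means were 5.22 to 5.61, over 20 T and NK cell genes 5.22 to 5.64 and over 17 stromal and endothelial genes 5.47 to 5.62. Of the T and NK cell genes 6 lay wholly above the wild type (against 5.46% of all genes) and 2 below (against 5.73%). Cd3d, a subunit of the T cell receptor complex, was at 8.50 in knockout array 2 and 5.01 to 5.77 in the others. Its part in other results was not tested. The Y-linked gene Eif2s3y was at 8.08, 8.30 and 7.65 in the knockout against 7.93, 8.04 and 8.43 in the wild type, and Xist, transcribed from an inactive X, was at 4.93, 6.47 and 4.66 in the knockout against 4.57, 4.62 and 4.53 in the wild type. Xist thus stood out in knockout array 2 alone, with Eif2s3y at the level of the other arrays.

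Whether the genotype difference depends on the sorted population was tested as an interaction, the difference in whole leukemia minus that in L-GMP. limma called 0 of 17749 genes (0%), with a lowest adjusted p of 1 and 365 genes (2.06%) at an unadjusted p under 0.05. With genotype and number as a random block that count was 552 and 0 were called, and without knockout array 1 of whole leukemia it was 887. Cd34 had an interaction of -2.23 (SE 0.53) and Rad9a of -0.50 (SE 0.11), both among the 6 lowest p of those more negative in whole leukemia. Acads, Pcp4l1, Snapc2 and Nlgn2 were the other 4, at -0.70, -1.43, -0.81 and -0.80. For Stag3 it was 0.27, with a 95% interval of -0.88 to 1.43, which is too wide to show that the populations are alike. The monocyte list's median was -0.36 in whole leukemia and -0.22 in L-GMP, the MLL-AF9 list's -0.51 and -0.26, the neutrophil list's 0.75 and -0.02, and the erythroid list's 1.36 and 0.12.

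**Figure D5:**
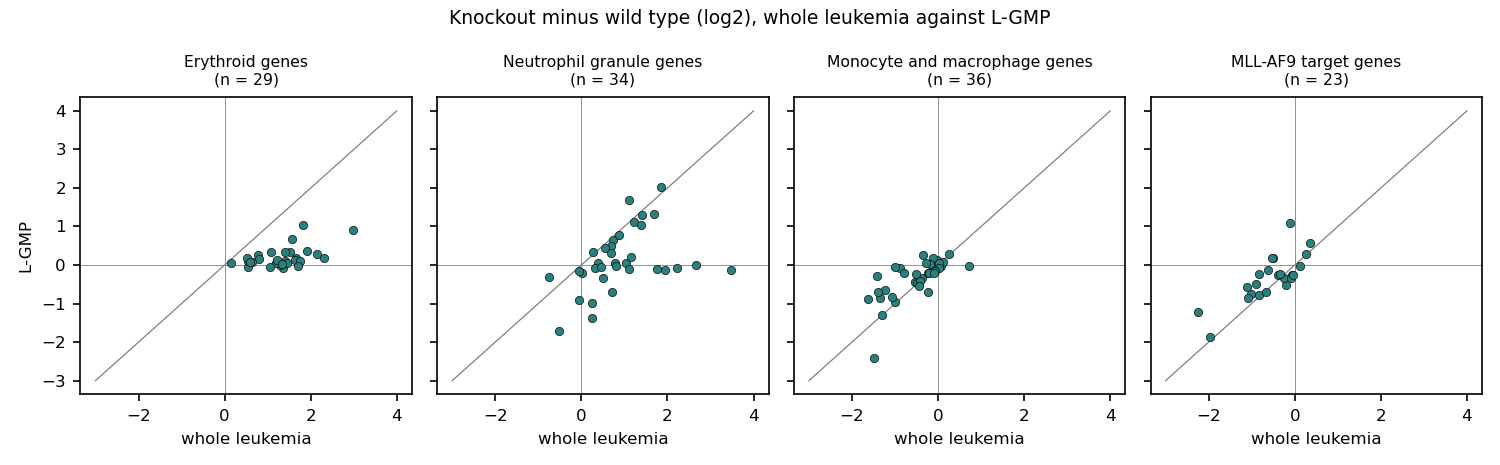
Each point is 1 gene of the named list, with its difference between knockout and wild type in log2 units in whole leukemia (horizontal) and in L-GMP (vertical); the diagonal marks equal values. Erythroid and neutrophil genes lie near 0 in L-GMP, with medians of 0.12 and -0.02, against 1.36 and 0.75 in whole leukemia.

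Genes next to the AMPK catalytic genes were examined as a description. Sequence flanking a targeted allele can be inherited with it, but here the wild type carries floxed AMPK alleles too. Such sequence need not differ between the genotypes, so the counts below do not test for it. Of the 20 tested genes nearest Prkaa1 in the RefSeq order on chromosome 15, 3 did not overlap, namely Ttc33 (0.25), C9 (-0.05) and Lifr, the leukemia inhibitory factor receptor (-1.12). Of the 20 nearest Prkaa2 on chromosome 4, Usp24, 2 tested genes away, was the 1 without overlap. Of the 20 nearest Stag3 on chromosome 5 it was 1, and of those nearest 1700080G11Rik on chromosome 4 it was 0, against 11.2% of all genes without overlap in either direction. These neighbours were looked at after the values of the genes were known.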

How the data were processed

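The authors deposited linear intensity values, from 17.96 to 9108.17 over 33794 probe sets, per the file headers; the sources used here do not give the background correction, normalization or software. Per the labels, RNA was amplified and labelled with NuGEN kits. Values were taken to log2 with pseudocount 0 and no further scaling, and array medians lay between 36.9 and 39.3. Each gene took its single-symbol probe set of highest mean, and the lowest 25% by mean log2 (under 4.72) were left out, removing 4431 of 22180 genes. limma 3.58.1 in R 4.3.3 (lmFit, eBayes) was fitted with 1 mean per group over all 12 arrays, giving 8 residual and 2.36 prior degrees of freedom, with Benjamini-Hochberg adjustment over 17749 genes and calls at an adjusted p under 0.05. The script was tested on simulated data. The precision is limited by the number of arrays. Another limma fit took the 10273 probe sets that have no symbol or more than 1: 0 were called, with a lowest adjusted p of 0.481. Symbols came from the platform annotation, 99.2% of whose gene identifiers were in RefSeq, with 0 symbols changed.

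The members and the 45 lists, with 896 genes tested, were chosen with earlier results of these data known. Named genes were the AMPK subunits, the 12 of lowest p and the 12 of largest non-overlapping difference in each direction, the 12 where knockout array 2 stood furthest apart, the 6 of lowest p without it and in the interaction, up to 8 of lowest p per list, and all sorting gate, sex-linked, erythroid and MLL-AF9 target genes, leaving out predicted names. The gene 1700080G11Rik was kept from earlier results. Camp, Cd68, Ctss, Elane, Fn1, Ltf, Lyz2, Mpo, S100a8 and the neighbouring genes were chosen after their values were seen. Equal replicate numbers did not pair the genotypes: the deviations of same-numbered arrays correlated at 0.0313, -0.1036 and 0.0605. Whole leukemia and L-GMP arrays of 1 genotype and number correlated at 0.3626, 0.623 and 0.3006 in the wild type and 0.133, 0.0905 and 0.4319 in the knockout. Alternatives were other filters, a pseudocount of 16, quantile normalization, the mean of probe sets, the whole leukemia arrays alone, array weights, blocks and leaving out each array.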

Additional observations from a re-analysis of the deposited data

Results flagged for a closer look

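The mean of the 4 genes of the L-GMP sorting gate, set against the wild-type mean, differed in direction between the sorted populations. Each knockout array lay below the wild-type mean in whole leukemia, with a mean difference of -0.68, and each lay above it in L-GMP, with a mean difference of 0.25. The L-GMP arrays overlapped, at 8.72, 8.81 and 8.46 in the knockout against 8.67, 8.32 and 8.25 in the wild type. Of the 4 genes 2 were higher and 2 lower there, with a median of 0.01. In whole leukemia Cd34 differed by -2.32 and the other 3 genes, Kit, Fcgr3 and Fcgr2b, by 0.50, -0.33 and -0.57, so that the median was -0.45, and -0.24 without knockout array 2. The gate selects L-GMP cells by the surface proteins of these genes, and its part in these RNA values was not tested. The difference between the populations was not tested for the list. The mean of 25 mTOR and TSC genes also lay below the wild-type mean in all knockout arrays of whole leukemia, with a mean difference of -0.07, and above it in all of L-GMP, with 0.06. The whole leukemia median was 0.01, and knockout array 2 equalled wild-type array 3 there, at 6.82. The L-GMP arrays overlapped, at 6.77, 6.82 and 6.83 in the knockout against 6.60, 6.87 and 6.77 in the wild type. The difference between the populations was not tested for this list either.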

How the results depend on the processing

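The count of genes called in whole leukemia was 0 to 1 over the 12 settings that leave out 1 array and 0 under the other 10, with lowest adjusted p values by limma from 0.0294 to 0.878 over all 22. The replicate block gave 0 calls, a lowest adjusted p of 0.372 and 1135 genes at an unadjusted p under 0.05, and it changed no other call. The interaction called 0 genes throughout. The count of genes without overlap, 1986, ranged from 3266 to 5051 when a whole leukemia array was left out, since fewer arrays overlap less, and from 1378 to 2419 under the filters. Leaving out 1 array moved the median of MLL-AF9 target genes between -0.71 and -0.28, the latter without knockout array 2, of monocyte genes between -0.52 and -0.30, of neutrophil genes between 0.36 and 1.37 and of erythroid genes between 0.20 and 1.93. Of 140 genes named, 128 kept their direction in every setting. The differences that turned, none past the test, are given as the range over the settings that leave out 1 array. They turned without knockout array 2 for Cdk6 (-0.94 to 0.17), Fasn (-0.95 to 0.05), Gata1 (-0.00 to 0.86), Myb (-0.92 to 0.18), Prg2 (-0.34 to 2.62), Elane (-0.38 to 0.63, also turned without wild-type array 3) and Prkag1 (-0.07 to 0.44, also without knockout array 3). Ccnb2 (-1.01 to 0.17), Eif2s3y (-0.27 to 0.06, also without wild-type array 3) and Eya1 (-0.57 to 1.65, also without wild-type array 2 or 3) turned without knockout array 3, and Mpo (-0.15 to 0.80) and Stag2 (-0.01 to 0.15) without knockout array 1. Array weights gave 0.35 for Elane and -0.18 for Mpo. The causes were not tested. No scanner background or detection call was used here, so no limit was measured for dim genes, and 3 arrays a group limit the precision.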

Other observations

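The medians of the MYC target and unfolded protein response lists lay near 0 without knockout array 2. Of 29 MYC target and ribosome biogenesis genes 23 were lower in the knockout, with a median of -0.18, and without that array the median was 0.05 with 13 lower. Polr1a, the large subunit of RNA polymerase I, was lower with and without it, at 7.77, 7.53 and 7.48 in the knockout against 8.04, 7.91 and 7.84 in the wild type, with no overlap and a difference of -0.34 ± 0.11, -0.31 without that array. Of 19 unfolded protein response genes 13 were lower, with a median of -0.21 and -0.01 without it. Atf6, a stress sensor of the endoplasmic reticulum, lay wholly lower, by -0.52 ± 0.25.

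Adhesion, cytokine and survival genes gave single differences. Selplg, the ligand of selectins, was at 8.90, 9.62 and 9.45 in the knockout against 9.98, 10.14 and 9.55 in the wild type, with overlap. Cxcr4, the marrow homing receptor, was wholly lower, at 9.37, 10.07 and 10.10 in the knockout against 10.17, 10.42 and 10.21 in the wild type, which gives a difference of -0.42 ± 0.22. Il1b, interleukin 1 beta, was at 8.42 in knockout array 2 and 6.11 in array 3, against 4.72 to 5.10 in the other 4. Bcl2, the survival protein and MLL-AF9 target, was at 6.09, 5.87 and 5.68 in the knockout against 6.04, 7.17 and 7.09 in the wild type, with overlap in wild-type array 1 and a difference of -0.89 ± 0.55. The cell cycle inhibitor genes Cdkn2a and Cdkn1a differed by -0.34 ± 0.12 and -0.50 ± 0.21, the first with no overlap. Of 16 megakaryocyte and platelet genes 9 were higher and 7 lower.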
